A study of Mus musculus with 6 samples.

Results

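The 8 genes described here, Dusp1, Dusp4, Dusp5, Dusp6, Spry2, Spry4, Spred1 and Spred2, encode inhibitors of the ERK branch of mitogen-activated protein kinase (MAPK) signalling. They were taken as a named list from 55604 gene identifiers in the count tables, and all 8 had enough counts to be tested among 11388 genes. Read counts came from 6 libraries of C57BL/6 mouse brain: 3 from mice given 4-aminopyridine (4-AP) by intraperitoneal injection and 3 from untreated mice, with no other allele or agent in the labels. 4-AP blocks voltage-gated potassium channels and served here to induce status epilepticus, a state of prolonged seizure. Linear RNA had been digested with the exonuclease RNase R before library construction, so counts of a gene mix its circular RNA with whatever linear RNA was left. The labels do not give the brain region, the dose, the time from injection, the age of the mice or whether each library came from a separate mouse. The series' design text calls the brain tissue paired without saying which libraries form pairs. The controls are labelled untreated, which does not say that they received an injection. P-values thus cover only the spread among these libraries, and that spread may be technical.

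ERK, a mitogen-activated protein kinase, is switched on by Ras, Raf and MEK downstream of growth factor and glutamate receptors, and it drives transcription of genes that in turn shut it off. The dual-specificity phosphatases of the Dusp family remove phosphate from the threonine and tyrosine of the kinase's activation loop. DUSP6 does so in the cytoplasm and prefers ERK, DUSP5 is nuclear and prefers ERK, DUSP4 is nuclear with a wider choice, and DUSP1 is nuclear and also acts on the stress kinases p38 and JNK. Sprouty proteins (Spry2, Spry4) block the path from receptor tyrosine kinases to Ras and Raf, and Spred proteins (Spred1, Spred2) bring the Ras inactivator neurofibromin to the membrane. Because ERK activity induces several of these transcripts, they are often read as a trace of recent ERK signalling in neurons. RNA levels do not measure phosphorylated ERK, which was not measured here.

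The start-site regions of 3 phosphatase genes are shown first. They were picked after Dusp1 was seen to have the opposite sign to the other phosphatases in the comparison below. Whether the motifs bear on the levels was not tested. The sequences are those of RefSeq on GRCm38.p6, the assembly of mm10, from 250 bases before to 50 after the start site, 5′ to 3′ on the gene's strand. Windows were read for 6 of the 8 genes. None was read for Dusp4 or Spry4, so their start-site regions were not searched. Capitals mark a full cAMP response element (CRE, TGACGTCA), its shorter form TGACG or a CArG box, the site bound by serum response factor. Each was searched on both strands, together with the AP-1 site TGANTCA and the ETS site CCGGAA. Shorter ETS forms were not searched. A full CRE also holds the shorter form on each strand. The Dusp1 window lies at chr17:26508423-26508722 (minus strand), that of Dusp5 at chr19:53528895-53529194 (plus strand) and that of Dusp6 at chr10:99262981-99263280 (plus strand).
Dusp1: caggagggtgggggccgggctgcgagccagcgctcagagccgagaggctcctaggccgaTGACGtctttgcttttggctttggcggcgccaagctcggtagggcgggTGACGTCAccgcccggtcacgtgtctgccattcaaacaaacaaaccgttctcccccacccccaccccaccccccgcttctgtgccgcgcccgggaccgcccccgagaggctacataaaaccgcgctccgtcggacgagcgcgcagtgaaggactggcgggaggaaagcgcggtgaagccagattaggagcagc
Dusp5: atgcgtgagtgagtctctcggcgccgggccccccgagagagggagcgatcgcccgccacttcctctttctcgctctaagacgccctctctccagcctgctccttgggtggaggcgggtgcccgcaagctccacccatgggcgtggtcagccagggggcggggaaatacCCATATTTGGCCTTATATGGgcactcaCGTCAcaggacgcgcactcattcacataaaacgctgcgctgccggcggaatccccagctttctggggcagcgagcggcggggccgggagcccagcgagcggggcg
Dusp6: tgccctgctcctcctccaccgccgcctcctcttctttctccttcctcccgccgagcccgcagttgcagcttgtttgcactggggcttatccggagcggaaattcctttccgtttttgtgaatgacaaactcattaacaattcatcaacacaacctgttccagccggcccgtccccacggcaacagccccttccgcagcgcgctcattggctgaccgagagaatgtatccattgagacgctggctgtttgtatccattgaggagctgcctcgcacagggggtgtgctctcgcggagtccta

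Dusp1 held a full CRE starting 143 bases before the start site, and a separate shorter form 191 bases before it. Of 32851 promoter windows of this length, 1.79% held a full CRE and 20.8% the shorter form. Dusp5 held 2 CArG boxes, starting 82 and 72 bases before the start site, and 1 shorter CRE form at 55 bases; 1.63% of all windows held a CArG box. None of the 5 motifs was in the Dusp6 or the Spred1 window. Spry2 held 1 ETS site of the form searched, found in 14.9% of all windows, and Spred2 held 1 shorter CRE form. The AP-1 site, present in 7.81% of all windows, was in none of the 6. A match is a run of letters and was not tested as a binding site.

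Depth was modest. Libraries held between 1507882 and 2721287 counts in the 4-AP group and between 2355610 and 3409055 in the controls, and a count of 3 stood for 0.778 to 2.19 CPM (counts per 1000000 of scaled library size). The 3 rarest members were therefore read from few counts over the 3 4-AP libraries, Dusp5 from 27 and Dusp4 and Spry4 from 43 each. Control replicate 3 stood apart from the other controls: it had 17942 genes with counts, where they had 20157 and 20272 and the 4-AP libraries 17026 to 17988. Its raw counts were also closer to those of 4-AP replicates 2 and 3 than to those of the other controls. Chi-square per degree of freedom was 8.62 and 9.55 against 26.4 and 24.9, a measure that grows with depth and leans on abundant RNA. In the summed cortical and hippocampal excitatory neuron markers this library lay with the controls (2344 to 2424 CPM, against 1263 to 1848 CPM after 4-AP). Without it, edgeR's test called 10 genes lower in place of 58 (as it did without 4-AP replicate 3) and 0 members, and the log2 fold changes were -1.41 for Dusp4, -1.44 for Dusp5, -0.78 for Dusp6, -0.52 for Spry2, -0.84 for Spry4 and 0.39 for Dusp1.

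The question put to the 2 groups was whether the feedback genes differed after induced seizures. Dusp4, Dusp5, Dusp6 and Spry2 lay lower in every 4-AP library than in every control library, Dusp1 lay higher in every 4-AP library, and Spry4, Spred1 and Spred2 overlapped between groups. None of the 8 passed an adjusted p of 0.05 by edgeR (quasi-likelihood F test, Benjamini-Hochberg over all genes), against 0.509% of all tested genes called lower and 0.334% called higher. At an unadjusted p under 0.05, 3 members were lower (Dusp4, Dusp5 and Dusp6) and 0 higher, where 7.57% of all tested genes were lower. The 4 members whose groups did not overlap on the lower side compare with 10.4% of all genes, and the 1 member on the higher side with 8.36%. The median log2 fold change of the 8 was -0.57, beside -0.008 over all genes tested.

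**Figure D1:**
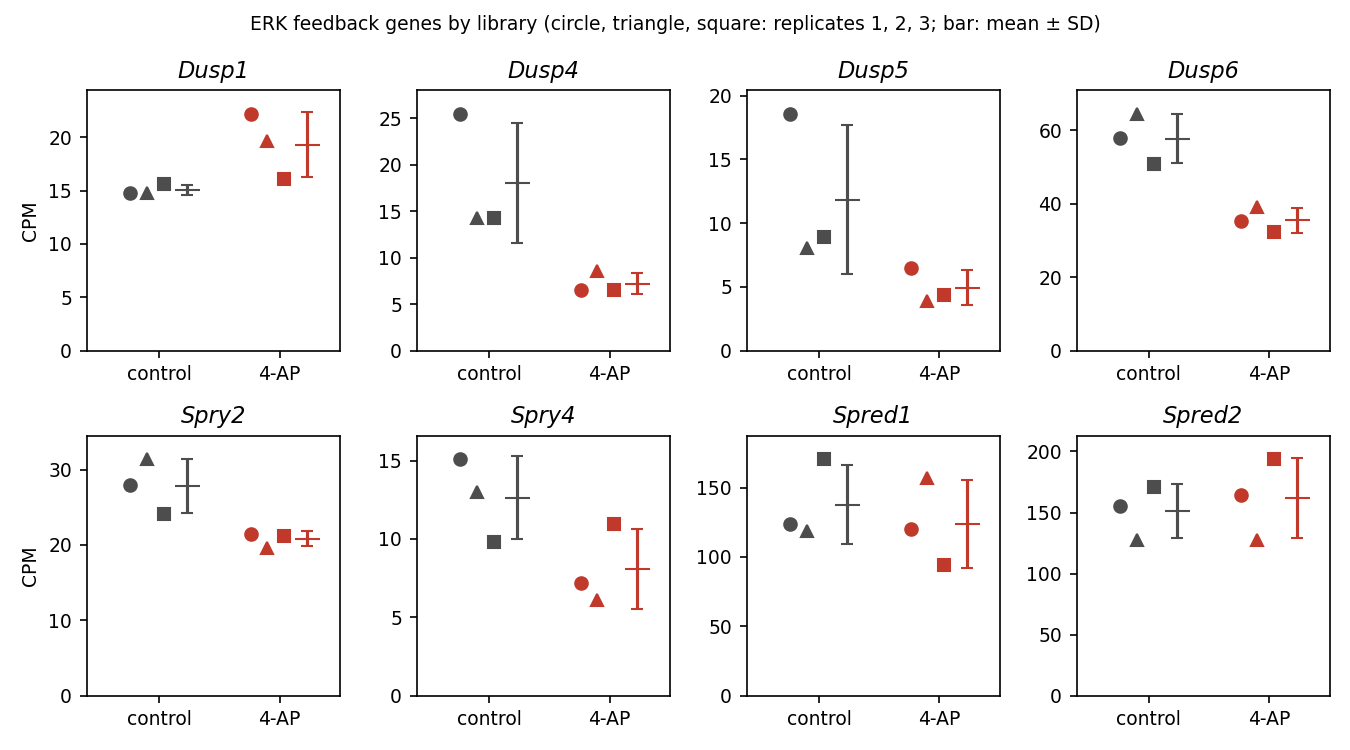
Level of each feedback gene in CPM (vertical axis, from 0) in the 3 control and 3 4-AP libraries, with the mean ± SD beside the points. Dusp6 sits between 32.2 and 39.0 CPM in 4-AP brain and between 50.9 and 64.3 in control brain, while the Spred1 and Spred2 points of the 2 groups overlap.

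Dusp6, the cytoplasmic ERK phosphatase, was the best counted of the phosphatases. It lies on chromosome 10 (99263231 to 99267489, plus strand, mm10), with 3 exons in its longest transcript. Its levels were 35.2, 39.0 and 32.2 CPM after 4-AP and 57.8, 64.3 and 50.9 CPM in the controls. The highest 4-AP library was thus below the lowest control. The mean was 35.4 ± 3.40 against 57.7 ± 6.72 CPM (SD, n = 3 each). The log2 fold change was -0.70 (SE 0.20, 95% interval -1.10 to -0.29), or 61.8% of the control level. The adjusted p was 0.0902 by edgeR's test, just outside the threshold. Leaving out each library in turn gave between -0.78 and -0.59, none of the 6 fits calling it.

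Dusp4, a nuclear phosphatase (chromosome 8, 34807297 to 34819894, plus strand), had the smallest p of the members. Its levels were 6.52, 8.58 and 6.58 CPM after 4-AP and 25.5, 14.3 and 14.3 CPM in the controls. Control replicate 1 stood well above the other controls, which were themselves above every 4-AP library. The log2 fold change was -1.28 (SE 0.34, 95% interval -1.99 to -0.57), 41.2% of the control level, with an adjusted p of 0.0705 by edgeR's test. Without control replicate 1 it was -0.94 (adjusted p = 0.263 by the same test).

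Dusp5, the nuclear ERK phosphatase (chromosome 19, 53529109 to 53542431, plus strand), followed the same layout. It had 6.52, 3.93 and 4.39 CPM after 4-AP and 18.5, 8.04 and 8.93 CPM in the controls, control replicate 1 again the highest. The log2 fold change was -1.29 (SE 0.43, 95% interval -2.19 to -0.39; adjusted p = 0.154 by edgeR's test), and it went to -0.79 without control replicate 1. Of the gene's exonic bases, 22.1% lie under AC137853.2, a gene on the opposite strand with no row in the deposited tables. As no strand setting is stated, reads of the 2 genes cannot be told apart there.

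Dusp1, the nuclear phosphatase that also acts on p38 and JNK, had the opposite sign. It lies on chromosome 17 (26505590 to 26562128, minus strand), and the RefSeq start site used above falls inside this span because a longer transcript extends beyond it. Its levels were 22.2, 19.7 and 16.1 CPM after 4-AP and 14.8, 14.8 and 15.6 CPM in the controls. The 3 controls were close to each other, and the lowest 4-AP library was only slightly above the highest of them. On the log2 scale the difference was 0.37 (SE 0.26, 95% interval -0.18 to 0.91; adjusted p = 0.592 by edgeR's test), so a difference was not shown. The interval leaves room for a level below the control's as well as for a clear excess.

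Of the Sprouty genes, Spry2 (chromosome 14, 105891947 to 105896819, minus strand) was the more abundant. Its levels were 21.5, 19.7 and 21.2 CPM after 4-AP and 28.0, 31.4 and 24.1 CPM in the controls. The 4-AP libraries were tightly grouped and all below the controls. Its log2 fold change of -0.44 (SE 0.23, 95% interval -0.91 to 0.04) had an adjusted p of 0.424 by edgeR's test.

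Spry4 (chromosome 18, 38586247 to 38601415, minus strand) had 7.17, 6.08 and 11.0 CPM after 4-AP and 15.1, 13.0 and 9.82 CPM in the controls. Here 4-AP replicate 3 exceeded control replicate 3, so the groups overlapped, which they did not without control replicate 3. The log2 fold change was -0.71 (SE 0.35, 95% interval -1.44 to 0.03; adjusted p = 0.389 by edgeR's test), as large a difference as that of Dusp6 with a wider error. It was -0.47 without 4-AP replicate 2 and -0.96 without 4-AP replicate 3.

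The Spred genes were the most abundant members and showed the smallest differences. Spred1 (chromosome 2, 117121374 to 117182279, plus strand) had 120, 157 and 94.3 CPM after 4-AP and 124, 119 and 171 CPM in the controls. Spred2 (chromosome 11, 19924375 to 20024026, plus strand) had 164, 128 and 194 CPM after 4-AP and 155, 127 and 171 CPM in the controls. Both groups spanned nearly the same range in each gene. The log2 fold change was -0.13 for Spred1 (95% interval -0.53 to 0.26; adjusted p = 0.832) and 0.09 for Spred2 (95% interval -0.26 to 0.45; adjusted p = 0.879), both by edgeR's test. The signs of these values changed when single libraries were left out: Spred1 was at 0.044 without control replicate 3 and 0.022 without 4-AP replicate 3, and Spred2 at -0.055 without 4-AP replicate 3.

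**Figure D2:**
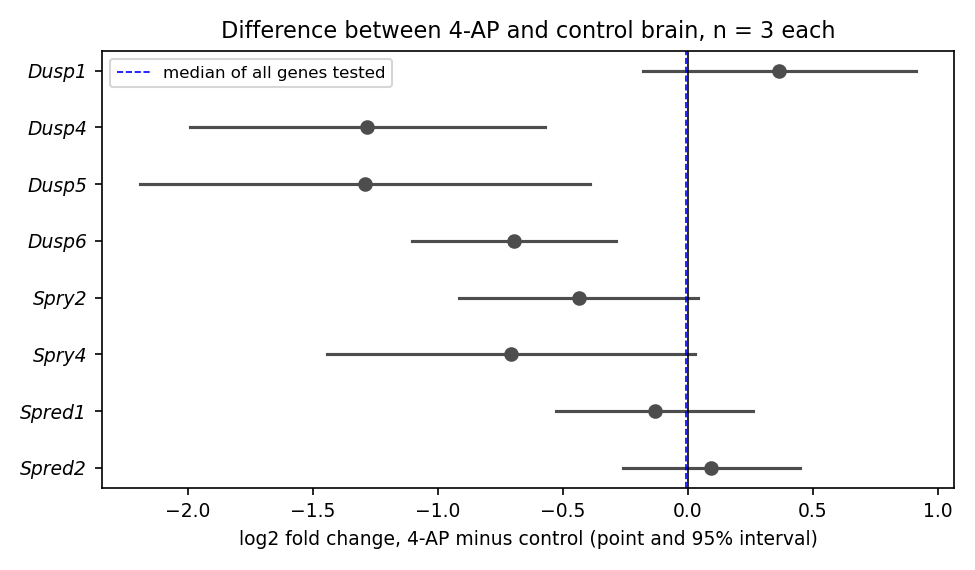
Log2 fold change of each feedback gene (4-AP minus control, horizontal axis; point and 95% interval from edgeR's fit, 3 libraries per group), with the median of all tested genes as a dashed line. The intervals of Dusp4, Dusp5 and Dusp6 lie below 0 before adjustment for the number of genes, and those of the other 5 members include 0.

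Other settings called Dusp4 or Dusp6 without changing their direction. With scaling by total counts alone, Dusp4 (-1.49, adjusted p = 0.0194) and Dusp6 (-0.91, adjusted p = 0.0343) passed edgeR's test, as did 2.57% of all tested genes on the lower side. That scaling moved the median of all genes to -0.22; relative to it Dusp4 was at -1.27, Dusp6 at -0.69 and Dusp1 at 0.37. With no filter on low counts, Dusp4 passed (-1.31, adjusted p = 0.0202), as did 0.766% of 25727 genes on the lower side. At an adjusted p under 0.1, 2 members were lower, Dusp4 and Dusp6, beside 1.48% of all tested genes.

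Ratios to Dusp1 within each library were computed after its opposite sign had been seen. With 3 libraries per group, their exact test could not reach a p under 0.05 whatever the values. The log2 ratio of Dusp6 to Dusp1 counts was 0.66, 0.98 and 0.98 after 4-AP and 1.96, 2.11 and 1.69 in the controls, a difference of -1.05 that does not depend on the scaling of libraries. For Dusp4 to Dusp1 the difference was -1.58 (mean -1.38 ± 0.29 against 0.20 ± 0.50), and for Dusp5 to Dusp1 it was -1.48 (mean -1.93 ± 0.30 against -0.45 ± 0.67; SD, n = 3 each, 0.5 added to each count). In all 3 ratios every 4-AP library was below every control. Spry2 to Dusp1 also separated the groups, by -0.75, and so did Spred1 to Dusp1, by -0.51, whereas Spry4 and Spred2 to Dusp1 overlapped. Each of the 5 separated ratios reached p = 0.1 in a two-sided exact permutation test, the smallest that 3 against 3 libraries allow. Over the family of 15 ratios computed the Benjamini-Hochberg value was 0.167.

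Across the 6 libraries Dusp4, Dusp5, Dusp6 and Spry2 varied together, with Pearson's r of log2 CPM between 0.72 and 0.91 for their 6 pairs. Dusp1 ran against them, with r from -0.74 to -0.54, and against Spry4 (r = -0.88). These values describe 6 libraries that share the contrast between groups and the same scaling, and they carry no test. For Spred2, the most abundant member, the genes most alike among the 11387 others tested included H2-K1 (r = 0.984) and Tent2 (r = 0.981) over the 6 libraries. With so many genes and 6 libraries, values of that size say little about any gene.

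Levels can be compared between genes only per length, here as CPM per kilobase of exon. In control brain the order was Spred2 (32.7 ± 4.77), Spred1 (20.3 ± 4.21), Dusp6 (18.4 ± 2.15), Spry2 (13.3 ± 1.75), Dusp4 (6.57 ± 2.36), Dusp5 (4.79 ± 2.36), Dusp1 (4.55 ± 0.15) and Spry4 (2.66 ± 0.56; SD, n = 3). Spred1 and Dusp6 overlapped in that order, and Dusp5 overlapped both Dusp4 and Dusp1, while Spred2 stood above Spred1, Spry2 below Dusp6, Dusp4 below Spry2, Dusp1 below Dusp4 and Spry4 below Dusp5 in every library. In 4-AP brain Dusp1, at 5.83 ± 0.92, ranked above Dusp4, at 2.64 ± 0.43, and Dusp5, at 2.0 ± 0.56, in every library, and Dusp6 (11.3 ± 1.09) overlapped Spry2 (9.96 ± 0.48). The Spred genes have 7 exons in their longest transcripts, the phosphatases 3 or 4 and the Sprouty genes 2. Since RNase R spares circles, these levels are not those of intact messenger RNA. The count rows of Dusp1 and Spry4 carry an earlier version of the gene model than the annotation that gave the exon lengths. For Dusp1 that annotation has 3311 exonic bases, but 2313 in its longest transcript. The places of Dusp1 and Spry4 in the order thus hold only for the lengths used.

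**Figure D3:**
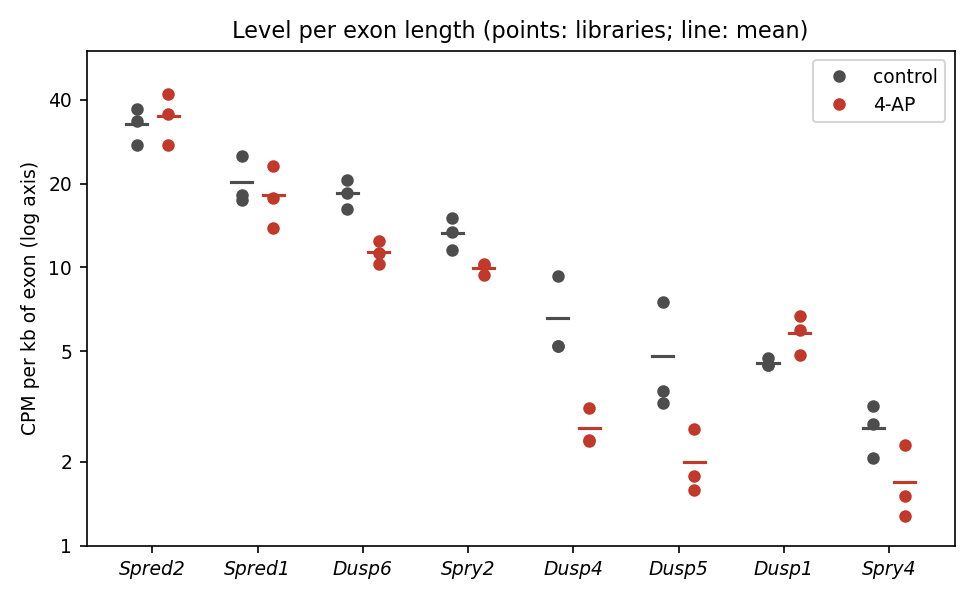
Level per exon length (CPM per kilobase of exon, log axis) of the 8 genes, ordered by their control mean; points are libraries and lines are group means. Spred2 is highest in both groups, and Dusp1 overlaps Dusp5 and lies below Dusp4 in control brain, and lies above both in 4-AP brain. The exon lengths of Dusp1 and Spry4 come from a later version of the gene model than their counts.

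The rest of the pathway gave the setting for these values. Of a list of 6 other typical MAPK phosphatase genes, 4 could be tested and 0 passed; Dusp7, a cytoplasmic ERK phosphatase, was at -0.53 (57.9 ± 11.2 against 83.6 ± 8.90 CPM, groups not overlapping) and Dusp16, a JNK and p38 phosphatase, at 0.34. Outside that list, Dusp3 and Dusp14 were named only after their low values were seen, and other unlisted Dusp genes are not given here. The small phosphatase gene Dusp3, whose product can act on ERK and JNK, fell (-0.67, adjusted p = 0.0459 by edgeR's test). It was among the 0.509% of all tested genes called lower. Dusp14 was at -0.88 (adjusted p = 0.0702 by the same test). The 11 other inhibitors of receptors, Ras or Raf were all tested and 0 passed, with Spred3 at -0.54 and the receptor-degrading protein gene Lrig1 at 0.60. Upstream, 0 of 28 tested receptor tyrosine kinase and ligand genes passed (median 0), with the neuregulin gene Nrg3 at -0.63 and the receptor gene Ret at 1.12. None of the 35 Ras to ERK cascade genes passed either (median -0.06), with the Ras activator Sos2 at 0.45. The 11 tested ERK effectors (median -0.12) and 22 JNK and p38 cascade genes (median -0.15) also held 0 called genes. Among them were the genes of the ERK-activated kinases Rps6ka5, at 0.51, and Mknk2, at -0.33. Map3k9, a kinase upstream of JNK, was at -0.77 and Map3k3 at 0.33.

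Transcripts that ERK activity induces were the 1 pathway list with called genes. Its immediate early genes were known to be low in these libraries when the list was drawn up, so its direction is no independent evidence. Of 28 listed genes 20 could be tested; 2 fell and 0 rose (0.509% and 0.334% of all tested genes). On the lower side 17 lay below 0, as did 50.96% of all tested genes, and the groups did not overlap in 12, as in 10.4% of all. The median log2 fold change was -0.71, beside -0.008 over all genes tested. The 2 that fell were Ier5 (-1.13, adjusted p = 0.00309) and the AP-1 subunit gene Fosl2 (-1.12, adjusted p = 0.0146; edgeR's test for both). Etv5, an ETS factor that fibroblast growth factor signalling induces along with the Sprouty genes, was picked here after its values were seen. It had 35.9, 31.8 and 23.4 CPM after 4-AP and 52.5, 54.2 and 55.8 CPM in the controls, a log2 fold change of -0.82 with an adjusted p of 0.0583 by edgeR's test. Its relatives Etv1 (-0.62) and Etv4 (-0.44) did not pass. Control replicate 1, the library highest in Dusp4 and Dusp5, was also the highest in Fosl2 and in the synaptic activity gene Arc. Fosl2 was at 123 CPM where the other controls had 69.0 and 75.0, and Arc at 650 CPM beside 323 and 308. It was also the highest control in the subcortical neuron markers Slc17a6, Tcf7l2 and Lef1. Tcf7l2 was at 12.26 CPM where the other controls had 0.259 and 0, and Lef1 at 9.74 CPM beside 2.59 and 2.68. The hormone genes Avp and Trh were not highest in it. Whether activity or tissue content set this library apart was not tested. Egr2 had 0 counts in every library and is not read as absent.

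**Figure D4:**
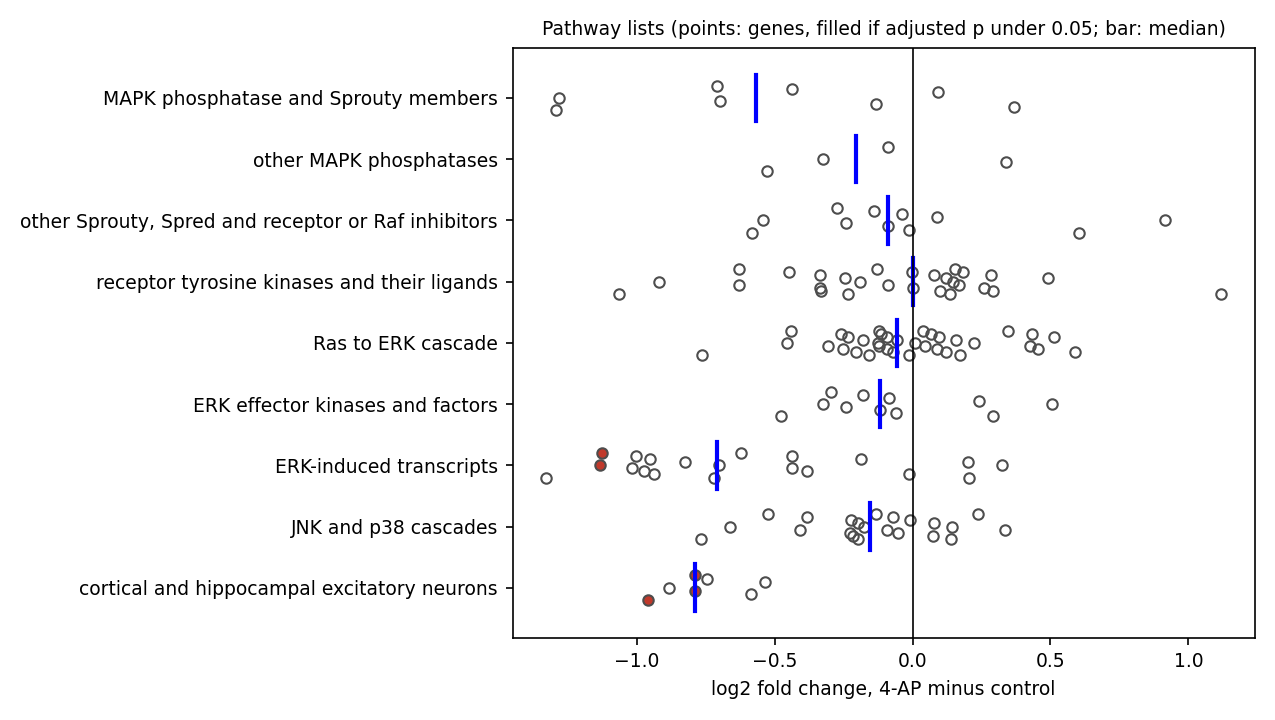
Log2 fold change (4-AP minus control, horizontal axis) of every tested gene in the pathway lists and in the list of cortical and hippocampal excitatory neuron markers; filled points have an adjusted p under 0.05 and bars are list medians. The feedback genes (median -0.57), the ERK-induced transcripts (-0.71) and the excitatory neuron markers (-0.79) lie to the left, and the Ras to ERK cascade (-0.06) lies around 0.

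Markers of cell types moved with the same contrast. All 7 markers of cortical and hippocampal excitatory neurons lay below 0 (median -0.79), 3 of them called lower, and their summed level was 1263 to 1848 CPM in the 4-AP libraries against 2344 to 2424 CPM in the controls. Of 8 subcortical neuron markers 4 could be tested and 3, all hypothalamic hormone genes, rose. The summed level of the 8 was 77.2 to 129 against 11.4 to 61.3 CPM. Slc17a6, also tested, overlapped between groups (adjusted p = 0.687 by edgeR's test). Of the untested markers, Tcf7l2 (4.16 against 4.17 CPM) and Lef1 (3.61 against 5.01 CPM) were not higher. Hcrt (3.65 against 0 CPM) and Pmch (4.92 against 0.105 CPM) were. Inhibitory neuron (323 to 446 against 318 to 432 CPM), oligodendrocyte (2930 to 4014 against 2536 to 3895 CPM) and endothelial and mural (116 to 181 against 129 to 167 CPM) sums overlapped, with 0 called genes in each. The astrocyte sum was lower (1578 to 1965 against 2244 to 2374 CPM), with 1 of 7 genes called lower. That gene, the glutamate transporter gene Slc1a2, made up most of the sum (1132 ± 94.4 against 1748 ± 40.4 CPM), 2 of the 7 lay below 0, and the list median was 0.15. The microglia sum was higher (454 to 558 against 383 to 443 CPM), with 0 of 7 called. Most of it was Cx3cr1 (374 ± 40.9 against 252 ± 26.2 CPM), 3 of the 7 lay below 0, and the list median was 0.04. No listed marker was at 0 counts in all 6 libraries, although Oxt and Hcrt were at 0 in each control. In bulk RNA, fewer cells of a type and less RNA per cell cannot be told apart.

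Set against Slc17a7, the vesicular glutamate transporter gene that marks these excitatory neurons, the members split into those that overlapped between groups and those that did not. Slc17a7 itself fell by 0.79 on the log2 scale (adjusted p = 0.0142 by edgeR's test), so a gene at equal CPM in both groups would be about that much higher relative to it. The log2 ratio of Dusp6 to Slc17a7 was -4.21, -3.90 and -3.73 after 4-AP and -4.02, -3.89 and -4.29 in the controls, overlapping groups with a difference of 0.12 (p = 0.6, two-sided exact permutation test). Dusp4 (-0.42, p = 0.5), Dusp5 (-0.32, p = 0.6) and Spry4 (0.17, p = 0.8) also overlapped by the same exact test. Dusp1 was higher relative to Slc17a7 in every 4-AP library, by 1.16, as were Spred2 by 0.90, Spred1 by 0.65 and Spry2 by 0.41, each with the smallest exact p of 0.1 and a Benjamini-Hochberg value of 0.167. In CPM, Spred1 and Spred2 themselves were at -0.13 and 0.09, Spry2 at -0.44 and Dusp1 at 0.37 (adjusted p = 0.592 by edgeR's test). The ratios of the Spred genes and of Spry2 thus mostly restate the fall of the denominator. That fall also makes up much of the ratio of Dusp1. Another marker of the list would give another shift, as Neurod6 was at -0.535 and Neurod2 at -0.958. These ratios do not show what set the levels, and the part of neuron content in the differences was not tested.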

How the data were processed

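Whole-number read counts per gene were deposited by the authors, 1 table for each of the 6 libraries. The submitters' processing notes name STAR 2.5.3a, featureCounts and the build mm10. Annotation release, strand setting and multi-mapping: not given in the sources used here. Each count adds reads of a gene's circular and linear RNA.

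Identifiers were matched without version to GENCODE M21 (mm10): 54809 of 55604 matched, and the other 795 held 0.0072% of counts. The members and gene lists were chosen with earlier results of these data known, and promoters came from RefSeq. No 2 libraries agreed within sampling noise (lowest chi-square per degree of freedom 8.62, between 4-AP replicate 2 and control replicate 3).

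Genes passing filterByExpr (minimum count 10, minimum total 15; 11388 genes) were scaled with TMM factors; edgeR 4.0.16 in R 4.3.3 gave the test (quasi-likelihood, robust, group only), adjusted by Benjamini-Hochberg over all of them; the procedure was tested on simulated data. Standard errors come from the fold change and F. CPM are counts per 1000000 of scaled library size, and kilobases are the union of a gene's exons. Counts of 3 are the floor and cover counting error only. Named genes were all members, the called genes of each pathway list or, with none called, the gene of smallest p per direction, and the 3 genes most alike to the most abundant member. Alternatives were other scalings, DESeq2 1.42.0, limma-voom (limma 3.58.1), other filters, abundant structural RNA left out, a replicate block, a non-robust fit, a threshold of 0.1 and leaving out each library; leaving out replicate 1 of both groups was added after seeing the data. Some items that the naming rule selects are not reported here.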

Additional observations from a re-analysis of the deposited data

How the results depend on the processing

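No member passed edgeR's test in the main comparison, in any of the 6 fits that left out 1 library, or with the other alternatives except 3: total counts alone (2 members), no filter on low counts (1) and an adjusted p under 0.1 (2). At an unadjusted p under 0.05, edgeR and DESeq2 each had 3 members and limma-voom 4, with Spry4 added. Of all 11388 genes tested, in either direction, that threshold held 1578 with edgeR, 1229 with DESeq2 and 1609 with limma-voom. DESeq2 gave an adjusted p to 3 of the 8 members, 0 of them called. Dusp1, Dusp4, Dusp5, Dusp6, Spry2 and Spry4 kept their sign in every alternative, the added one included. The signs that turned were those of Spred1 without 4-AP replicate 3 (0.022) or control replicate 3 (0.044), and of Spred2 with total counts alone (-0.12) or without 4-AP replicate 3 (-0.055); their cause was not tested. Over the fits without 1 library Spred1 ran from -0.33 to 0.044 and Spred2 from -0.055 to 0.27. Over all genes, 38 were called higher and 58 lower, which became 26 and 293 with total counts alone, 82 and 111 with DESeq2, 131 and 197 with no filter, 25 and 30 without the robust fit, and 121 and 169 at an adjusted p under 0.1. Leaving out 1 library gave 16 to 105 higher and 10 to 54 lower genes (10 lower without control replicate 3 and also without 4-AP replicate 3), and leaving out replicate 1 of both groups 48 and 28. With the replicate block the counts were 112 and 153, with 0 members called (lowest adjusted p = 0.0511, Dusp6). Deviations of same-numbered libraries had correlations of 0, 0.096 and 0.022, the value 0.096 being the highest between the groups. Not every library correlated best with its own number. With 3 libraries per group these values cannot decide whether the numbers are pairs. The main test did not treat them as pairs, although the design text speaks of paired tissue. Depth limits Dusp4, Dusp5 and Spry4 most, each at 6 to 24 counts per 4-AP library.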
